A study of Mus musculus with 18 samples.

Results

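FGF2 and BMP4 were set directly against each other in co-cultures of murine embryonic stem (ES) cells with the stromal line PA6, without reference to the untreated cultures. The comparison used 6 of the 18 arrays of the study, 3 of FGF2-treated and 3 of BMP4-treated ES/PA6 co-cultures, chosen by their labels. ES cells carrying a knock-in of EGFP under the τ promoter had been kept undifferentiated on feeder fibroblasts with LIF, and were then plated on PA6 cells in serum-free medium with FGF2 at 20 ng/ml or BMP4 at 10 ng/ml, the doses of the labels. For slide cultures a smaller amount of BMP4 stands in the methods, and which of the doses these wells received is not settled beyond the labels. RNA was collected on day 3. Each biological replicate had 1 well per condition, so arrays with the same number belong together. The remaining groups were the same co-cultures without growth factors (-GFs) and PA6 mono-cultures under the same 3 conditions, again with 3 arrays each. A co-culture array reads the RNA of both cell types together, and fewer cells of a type cannot be told apart from less RNA per cell. Both kinds of culture rest on 1 ES line and 1 stromal line.

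FGF2 signals through receptor tyrosine kinases and the ERK cascade, and BMP4 through receptor serine kinases and SMAD transcription factors that switch on the ID genes. In mouse ES cells the naive state, held by LIF and STAT3 with factors such as KLF4 and TBX3, gives way to a primed, epiblast-like state marked by FGF5, OTX2 and POU3F1 before the cells enter a germ layer. BMP4 is known to oppose neural commitment and to favour mesoderm, surface ectoderm and, in stromal progenitors such as PA6, fat cells, while FGF2 is known as an angiogenic and mitogenic factor.

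Gene expression was measured on single-colour bead arrays, and values are normalised log2 intensities. A probe was kept when 3 or more of the 6 arrays detected it above the negative controls (detection p under 0.05), which left 20068 of 45281 probes and, with 1 probe per gene name, 14508 genes. The 6 arrays had between 19365 and 20412 detected probes. Correlations within a group ran from 0.9796 to 0.9882, against 0.9659 to 0.9803 between FGF2 and BMP4 arrays. The 8 ES cell markers had a mean level of 11.96 to 12.18 on the FGF2 arrays and 11.84 to 12.26 on the BMP4 arrays, and the 13 measured stromal fibroblast markers 11.33 to 11.37 and 11.10 to 11.49, so the ranges overlapped for both cell types. Of these markers LIN28 was called higher with BMP4 (log2 fold change -1.35) and COL6A3, a collagen chain, higher with FGF2 (1.003). In PA6 mono-cultures the ES cell markers were between 5.10 and 5.39. Genes carry the names printed in the array table.

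A gene was called when its log2 fold change exceeded 1 in size with an adjusted p under 0.1. Of the 14508 genes tested, 314 (2.16%) were called, 188 (1.3%) in favour of FGF2 and 126 (0.868%) in favour of BMP4. With the replicate number as a block, 496 genes (3.42%) were called, 323 (2.23%) in favour of FGF2 and 173 (1.19%) in favour of BMP4, and all 314 were among them. For all 314 the arrays of the 2 groups did not overlap, which held for 2870 (19.8%) of all genes. Log2 fold changes of the called genes ran from -5.83 to 5.57, and 67 exceeded 2 in size, 34 higher with FGF2 and 33 with BMP4. A further 249 genes passed the adjusted p with a smaller change. An unadjusted p under 0.05 was found for 2160 of the 14508 genes, the share to set beside such counts in the gene lists. FGF2 took 59.9% of the calls, 70.2% when the arrays were scaled to their medians instead, 52.9% at an adjusted p under 0.05, 51.5% without FGF2 replicate 2 and 47.6% without BMP4 replicate 2. The count depended on single arrays: it was 97 without FGF2 replicate 2, 147 without BMP4 replicate 2 and between 214 and 364 without any of the other arrays.

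SOCS3 and BCL3 transcripts were higher on the FGF2 side, while STAT3 activity was not measured. Both genes were listed under the JAK-STAT3 axis, which carries the LIF signal in ES cells and the acute-phase response elsewhere. SOCS3, a feedback inhibitor of this axis, read 12.74, 12.71 and 12.93 on the FGF2 arrays and 10.52, 10.05 and 10.25 on the BMP4 arrays (replicates 1 to 3), a log2 difference of 2.52 (SE 0.16, adjusted p = 0.00376). BCL3, a nuclear regulator of NF-κB that STAT3 induces, read 9.003, 9.07 and 9.11 with FGF2 and 6.94, 6.62 and 7.22 with BMP4, a log2 difference of 2.13 (SE 0.18, adjusted p = 0.00432). In both genes the FGF2 arrays lay close together and well above every BMP4 array. SOCS3 and BCL3 were the only called members of the 12 on the LIF and STAT3 list, although all 12 had a positive change (median 0.43, against 0.01 over all genes). LIF itself had a log2 difference of 0.64 (adjusted p = 0.271), LIFR, its receptor, 0.22 (adjusted p = 0.778), and OSMR, the oncostatin M receptor, 0.44 (adjusted p = 0.267). In PA6 mono-cultures SOCS3 differed by 3.23 (adjusted p = 1.9e-05) and BCL3 by 2.05 (adjusted p = 7.74e-05). The difference between culture types was not called for either gene: it was -0.71 for SOCS3, short of the fold threshold (adjusted p = 0.0565), and 0.08 for BCL3 (adjusted p = 0.881).

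Since SOCS3 and BCL3 were higher together in both kinds of culture, the 250 bases before their RefSeq gene starts (GRCm38.p6, minus strand for both genes) were searched for the STAT motif TTCNNNGAA, which reads the same on both strands. The motif occurs in 7.02% of 32851 promoters of this length. The Socs3 sequence, chr11:117969367-117969616, held 1 match, printed in capitals, which starts at -154 from the gene start. The Bcl3 sequence, chr7:19822756-19823005, held 0. A match is a description of the letters and no evidence of binding.
Socs3: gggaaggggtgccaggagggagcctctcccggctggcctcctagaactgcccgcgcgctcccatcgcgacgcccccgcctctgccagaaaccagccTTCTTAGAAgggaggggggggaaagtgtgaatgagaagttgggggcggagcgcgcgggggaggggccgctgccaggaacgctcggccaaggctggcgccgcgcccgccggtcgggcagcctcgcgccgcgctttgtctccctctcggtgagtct
Bcl3: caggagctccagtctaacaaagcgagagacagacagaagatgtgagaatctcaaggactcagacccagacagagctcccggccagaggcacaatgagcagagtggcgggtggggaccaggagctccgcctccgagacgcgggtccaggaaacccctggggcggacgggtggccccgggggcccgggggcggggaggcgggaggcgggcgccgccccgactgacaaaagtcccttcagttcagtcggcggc

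The largest difference in favour of FGF2 was in SERPINA3N, an acute-phase serine protease inhibitor. It read 12.98, 12.50 and 11.58 with FGF2 and 7.32, 6.09 and 6.95 with BMP4, a log2 difference of 5.57 (SE 0.42, adjusted p = 0.00376). IL33, an alarmin of stromal and endothelial cells, read 11.92, 11.50 and 10.43 against 7.69, 8.90 and 8.90, a change of 2.79 (SE 0.46, adjusted p = 0.0355), and lost the call without FGF2 replicate 2 (adjusted p = 0.149). Both genes had every FGF2 array above every BMP4 array. Of 12 measured acute-phase genes these 2 were called, and 6 with the replicate block. The block added SAA3, an acute-phase apolipoprotein (log2 fold change 2.13, adjusted p = 0.183 without and 0.00789 with the block), SLPI, a protease inhibitor (1.46, adjusted p = 0.154 and 0.0068), the chemokine CCL2 (1.32, adjusted p = 0.253 and 0.0208) and the iron-binding protein LCN2 (1.16, adjusted p = 0.427 and 0.0208). Replicate 3 was lowest on both sides for LCN2, SLPI, SAA3 and CCL2, and the groups overlapped for SAA3, CCL2 and LCN2 while each pair of arrays differed the same way. The median of the 12 genes was 0.997. In the -GFs co-cultures SAA3 averaged 11.28, above its means with FGF2 (9.92) and BMP4 (7.79). SERPINA3N (8.24) and IL33 (8.42) averaged less there than with FGF2 (12.36 and 11.28).

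BTC (betacellulin), a ligand of EGF receptors, read 9.44, 8.79 and 8.19 with FGF2 and 5.96, 5.98 and 5.93 with BMP4, a log2 difference of 2.85 (SE 0.29, adjusted p = 0.00903). The BMP4 arrays were almost level and detected BTC on 2 of 3 arrays. It was the only called gene of 6 measured EGF family members and receptors. TNC (tenascin C), an extracellular matrix glycoprotein of migrating and repairing tissue, read 11.05, 10.78 and 10.32 against 6.86, 7.16 and 8.25, a change of 3.29 (SE 0.37, adjusted p = 0.0124). Of its 4 kept probes the other bright one gave 3.19, and 2 dim ones gave 0.14 and 1.19. SEMA7A, a membrane-bound semaphorin, read 9.63, 9.29 and 7.51 against 6.29, 6.39 and 6.09, a change of 2.55 (SE 0.50, adjusted p = 0.0592). FGF2 replicate 3 was well below the other two, and the call was lost when any array but FGF2 replicate 3 was left out (adjusted p = 0.123 without FGF2 replicate 1, 0.202 without FGF2 replicate 2, 0.134 without BMP4 replicate 1, 0.16 without BMP4 replicate 2 and 0.128 without BMP4 replicate 3). EVI2A, a membrane protein, was not detected on the BMP4 arrays and lay at least 5.01-fold higher in FGF2 cultures (adjusted p = 0.0505). Leaving out FGF2 replicate 2 (adjusted p = 0.185) or BMP4 replicate 1, 2 or 3 (0.121, 0.139 and 0.113) ended that call. LOC100046802, an array gene model with no described product, was 2.79 higher with FGF2 (SE 0.18, adjusted p = 0.00376).

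**Figure D1:**
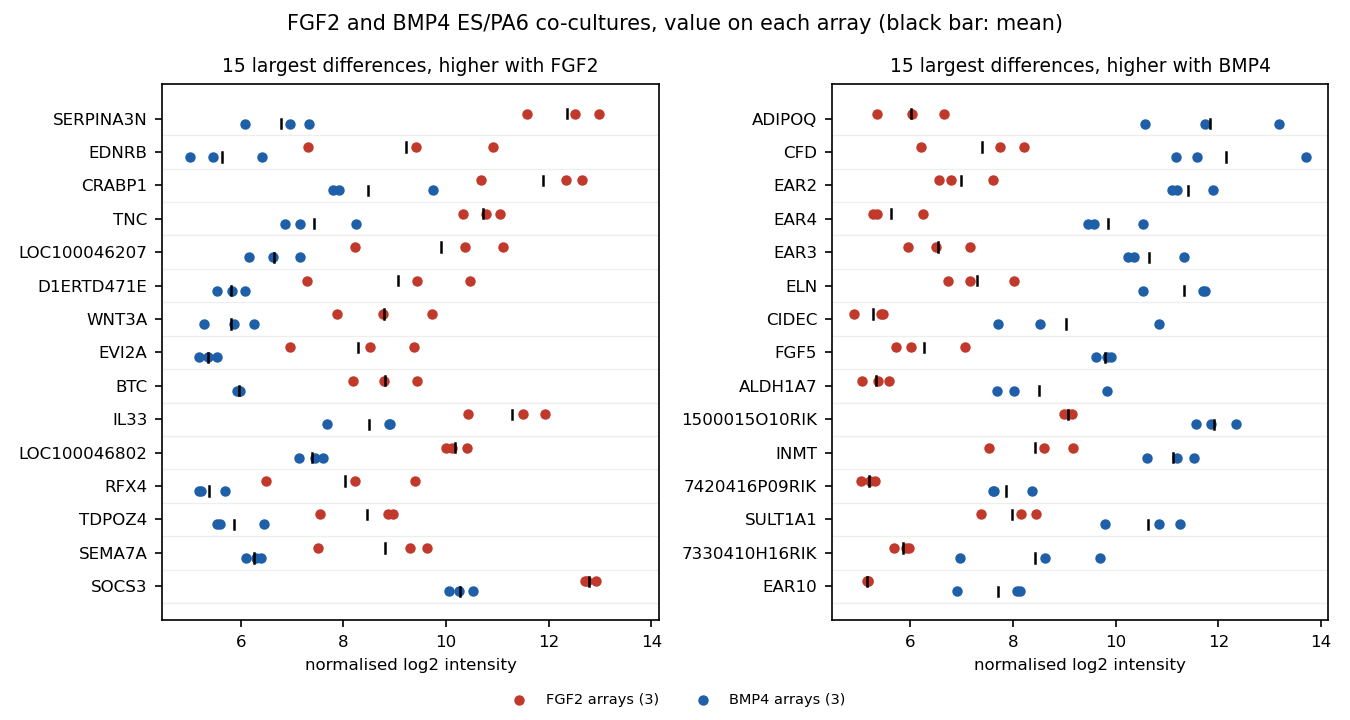
Normalised log2 intensity (horizontal axis) of the 15 called genes with the largest differences in each direction, with 3 FGF2 arrays in red, 3 BMP4 arrays in blue and the group mean as a black bar. No gene shown has an FGF2 array among its BMP4 arrays; SOCS3 and 1500015O10RIK have tight groups, whereas EDNRB, D1ERTD471E and RFX4 are spread over several log2 units on the FGF2 side.

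Matrix proteases and their inhibitors were called in both directions. TIMP1, an inhibitor of matrix metalloproteinases, read 15.34, 15.28 and 14.63 with FGF2 and 13.27, 13.01 and 12.93 with BMP4, a log2 difference of 2.02 (SE 0.22, adjusted p = 0.011). MMP9, a gelatinase, was 1.91 higher (SE 0.29, adjusted p = 0.0305) and ADAMTS4, an aggrecanase, 1.06 higher (SE 0.14, adjusted p = 0.0206). ADAMTS9, a proteoglycan-cleaving protease, went the other way, with -1.53 (SE 0.21, adjusted p = 0.0234). Of 12 measured proteases and inhibitors, 3 calls favoured FGF2 and 1 BMP4, and 5 and 1 with the block, which added the matrix metalloproteinases MMP2 (1.06, adjusted p = 0.168 without and 0.0405 with the block) and MMP3 (1.14, adjusted p = 0.727 and 0.0162). MMP9 lost its call without FGF2 replicate 2 (adjusted p = 0.138) or BMP4 replicate 2 (0.102), and ADAMTS9 without FGF2 replicate 2 (0.104). The 10 measured matricellular proteins and proteoglycans were split, with TNC and THBS2 (1.29, SE 0.22, adjusted p = 0.0407) higher with FGF2 and OGN and THBS1 (-1.42, SE 0.29, adjusted p = 0.0684) in favour of BMP4. THBS2 lost its call without FGF2 replicate 2 (adjusted p = 0.161) or BMP4 replicate 1 or 2 (0.105 and 0.13), and THBS1 without FGF2 replicate 1 (0.171) or 2 (0.218) or without BMP4 replicate 2 (0.202) or 3 (0.134). OGN (osteoglycin), a small leucine-rich proteoglycan, read 9.60, 9.89 and 10.98 with FGF2 and 12.05, 12.79 and 12.55 with BMP4, a change of -2.30 (SE 0.37, adjusted p = 0.0333; 0.142 without FGF2 replicate 2 and 0.116 without BMP4 replicate 2). ELN, the gene of elastin, showed the largest matrix difference in favour of BMP4. It read 6.72, 7.17 and 8.02 against 10.53, 11.74 and 11.70, a change of -4.02 (SE 0.42, adjusted p = 0.00999).

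Most measured genes of the primed epiblast were lower with FGF2 than with BMP4. FGF5, the classical marker of the primed state, read 6.02, 5.72 and 7.06 with FGF2 and 9.90, 9.83 and 9.63 with BMP4, a log2 difference of -3.52 (SE 0.33, adjusted p = 0.00547). OTX2, a homeobox factor of the epiblast and anterior neural plate, read 10.35, 9.86 and 10.49 against 12.61, 12.29 and 12.42, a change of -2.21 (SE 0.20, adjusted p = 0.00516). POU3F1 (OCT6), a POU factor of the epiblast, read 9.29, 9.44 and 8.79 against 11.51, 11.35 and 10.96, a change of -2.10 (SE 0.22, adjusted p = 0.0109). In all 3 genes the closest FGF2 and BMP4 arrays were more than 1 log2 unit apart. DNMT3B, a de novo DNA methyltransferase, read 13.07, 13.14 and 13.13 against 14.77, 14.73 and 14.67, a change of -1.61 (SE 0.12, adjusted p = 0.00376). PIM2, a serine/threonine kinase, changed by -2.44 (SE 0.27, adjusted p = 0.0124), CLDN6, an epithelial tight junction protein, by -2.05 (SE 0.22, adjusted p = 0.011), and ZIC2, a zinc finger factor of the epiblast and neural plate, by -1.48 (SE 0.22, adjusted p = 0.0294). Of 12 measured primed genes 7 were called, all higher with BMP4, with a median of -1.54, and the 7 calls were made whichever array was left out. LIN28B (-0.33, adjusted p = 0.67), SALL2 (-0.41, adjusted p = 0.681) and WNT8A (-0.80, adjusted p = 0.52) did not pass. In the -GFs co-cultures FGF5 averaged 10.44, OTX2 12.75, POU3F1 12.19 and DNMT3B 15.31, all nearer to the BMP4 than to the FGF2 arrays.

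Naive pluripotency genes were higher with FGF2 in part. TBX3, a T-box factor, read 11.14, 10.77 and 10.80 with FGF2 and 9.63, 8.89 and 9.33 with BMP4, a log2 difference of 1.62 (SE 0.22, adjusted p = 0.0217). GBX2, a homeobox target of STAT3, read 12.04, 12.18 and 11.95 against 10.79, 10.33 and 10.04, a change of 1.67 (SE 0.21, adjusted p = 0.0175). KLF4, a reprogramming factor, read 11.76, 11.005 and 11.34 against 10.10, 9.10 and 9.78, a change of 1.71 (SE 0.29, adjusted p = 0.0407), with adjusted p = 0.103 without FGF2 replicate 1 and 0.104 without FGF2 replicate 2. Each of these genes had separate groups. TCFCP2L1 (now TFCP2L1), a naive factor, changed by 1.39 (SE 0.29, adjusted p = 0.0688), and its call was lost when any array except BMP4 replicate 3 was left out (adjusted p = 0.114, 0.196 and 0.132 without FGF2 replicates 1, 2 and 3, 0.16 and 0.183 without BMP4 replicates 1 and 2). The other 11 of the 15 measured naive genes were not called. NANOG had 0.76 (adjusted p = 0.253 without and 0.0246 with the block, under the fold threshold), ZFP42 (REX1) 0.36 (adjusted p = 0.368) and KLF2 0.20 (adjusted p = 0.638). The median of the 15 was 0.80, and 13 were positive. KLF4 and TBX3 were also detected on all 9 PA6 mono-culture arrays, GBX2 on 2 and TCFCP2L1 on 0. KLF4 averaged 9.29 with FGF2, 9.08 with BMP4 and 10.15 without growth factors in mono-cultures. The FGF2 minus BMP4 contrast there was 0.21 for KLF4 and 0.61 for TBX3, neither called. Which cell type gave the co-culture differences of these genes was not tested. In the core pluripotency list 1 of 9 was called, LIN28 (now Lin28a), an RNA-binding protein, with -1.35 (SE 0.18, adjusted p = 0.0206). POU5F1 (OCT4) stood at -0.08 (adjusted p = 0.882), SOX2 at 0.15 (adjusted p = 0.775) and SALL4 at -0.10 (adjusted p = 0.794).

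**Figure D2:**
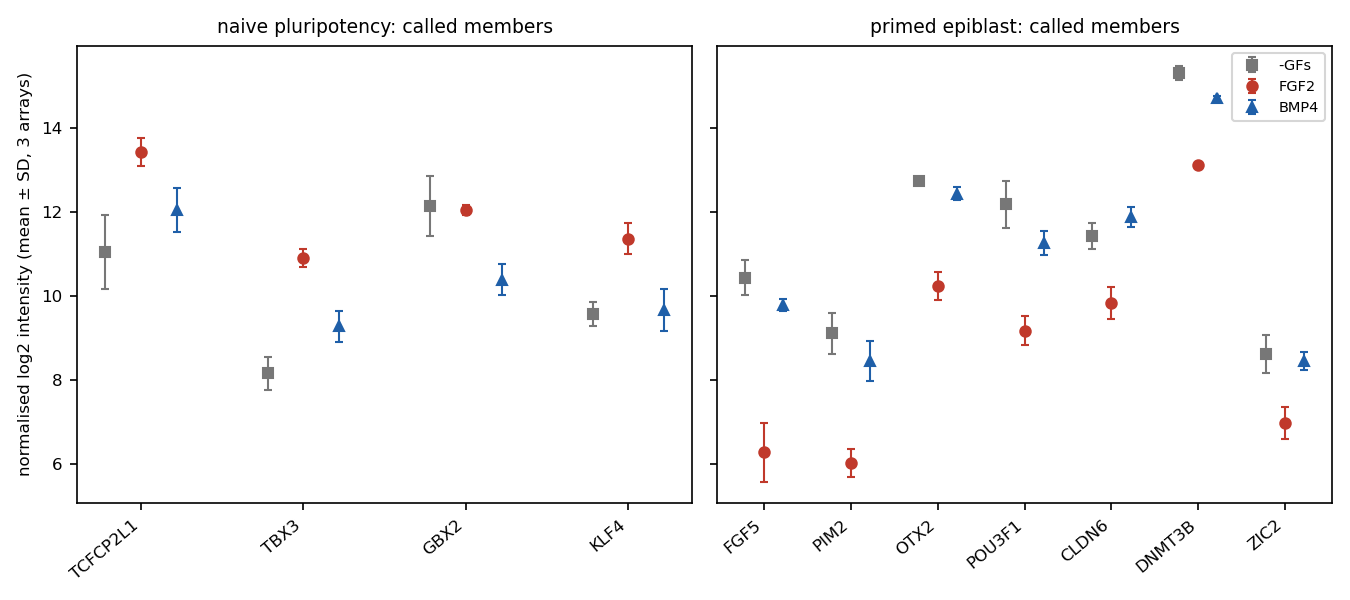
Mean normalised log2 intensity ± SD (3 arrays) of the called naive and primed genes in ES/PA6 co-cultures without growth factors (grey squares), with FGF2 (red circles) and with BMP4 (blue triangles). The primed genes are lowest with FGF2, and the -GFs and BMP4 values of FGF5, OTX2 and ZIC2 lie close together; among the naive genes GBX2 is lowest with BMP4, whereas TBX3 is lowest without growth factors.

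Nodal signalling, which maintains the primed epiblast, was measured through 9 genes. LEFTY1, a secreted Nodal inhibitor, was higher with BMP4 (log2 fold change -1.38, SE 0.24, adjusted p = 0.044), as was FOXH1, the DNA-binding partner of SMAD2 in this pathway (-1.04, SE 0.20, adjusted p = 0.0592). The block added LEFTY2, a further inhibitor (-1.02, adjusted p = 0.284 and 0.0496). NODAL itself stood at -0.21 (adjusted p = 0.625). The list was not uniform: 7 of the 9 were negative and 2 positive, with a median of -0.26 and values of up to 0.97. LEFTY1 lost its call without FGF2 replicate 1 (adjusted p = 0.108), FGF2 replicate 2 (0.176) or BMP4 replicate 1 (0.107). FOXH1 lost it without FGF2 replicate 1 or 3 or any BMP4 array (adjusted p between 0.115 and 0.17).

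Receptor and ligand genes of the FGF family that were called were all higher with BMP4. Besides FGF5 these were FGF15, which is expressed in early neural tissue (log2 fold change -1.84, SE 0.39, adjusted p = 0.0718), FGFR2, a receptor (-1.27, SE 0.30, adjusted p = 0.0924), and FGF10, a mesenchymal ligand (-1.25, SE 0.29, adjusted p = 0.0905). Thus 4 of 14 were called, and 5 with the block, which added FGF8 (-1.58, adjusted p = 0.33 and 0.0382). Apart from FGF5 each of these calls was lost when 1 array was left out, with an adjusted p of up to 0.207 for FGF15 and 0.261 for FGF10 without FGF2 replicate 2, and of 0.255 for FGFR2 without BMP4 replicate 2. FGF1, FGF4 and FGF7 had 0.67 (adjusted p = 0.402 without and 0.0476 with the block, under the fold threshold), -0.58 (adjusted p = 0.252) and 0.04 (adjusted p = 0.962). Feedback and early response genes of ERK gave 0 calls of 14 by limma in the co-cultures (3 at an unadjusted p under 0.05), and DUSP4, DUSP6 and SPRY4, which limit ERK signalling, had log2 fold changes of -0.44 (adjusted p = 0.624), 0.16 (adjusted p = 0.663) and 0.08 (adjusted p = 0.955).

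Some neural genes were higher with FGF2 than with BMP4, with a wide spread among the FGF2 arrays. CRABP1, a retinoic acid binding protein of early neural cells, read 10.68, 12.34 and 12.65 with FGF2 and 7.80, 7.92 and 9.74 with BMP4, a log2 difference of 3.40 (SE 0.65, adjusted p = 0.0557; 0.0105 with the block). EDNRB, the endothelin B receptor of neural crest and radial glia, read 7.31, 9.42 and 10.92 against 5.01, 5.46 and 6.41, a change of 3.59 (SE 0.83, adjusted p = 0.0885; 0.0144 with the block). RFX4, a factor of the neural tube, was not detected with BMP4 and lay at least 4.23-fold higher in FGF2 cultures (adjusted p = 0.096; 0.0327 with the block). D1ERTD471E (now Ildr2), a membrane protein, read 7.29, 9.43 and 10.46 against 5.82, 5.54 and 6.08, a change of 3.25 (SE 0.70, adjusted p = 0.0745). In every one of them FGF2 replicate 1 was the lowest of the FGF2 arrays. LOC100046207, an array gene model, showed the same order, with 8.22, 10.37 and 11.11 against 6.16, 6.62 and 7.15, a change of 3.25 (SE 0.68, adjusted p = 0.0692). In the -GFs co-cultures CRABP1 averaged 11.70, EDNRB 9.66, RFX4 8.02, D1ERTD471E 9.11 and LOC100046207 9.92. The FGF2 means were 11.89, 9.22, 8.04, 9.06 and 9.90 in the same order, and the BMP4 means 8.49, 5.63, 5.37, 5.81 and 6.64. The untreated level was thus nearer to FGF2 than to BMP4 for these 5 genes. All 5 calls were lost without FGF2 replicate 2 (adjusted p = 0.196 for CRABP1, 0.247 for EDNRB, 0.262 for RFX4, 0.234 for D1ERTD471E and 0.223 for LOC100046207), FGF2 replicate 3 (0.112, 0.121, 0.124, 0.104 and 0.111 in the same order), BMP4 replicate 1 (0.135, 0.197, 0.199, 0.16 and 0.162) or BMP4 replicate 2 (0.172, 0.232, 0.25, 0.217 and 0.191), and those of EDNRB, RFX4, D1ERTD471E and LOC100046207 also without BMP4 replicate 3 (0.122, 0.159, 0.135 and 0.109).

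The early neural list had 1 call of 10 measured genes (CRABP1) without the block and 5 with it, all higher with FGF2. The block added ZIC1, a neural plate factor that was not detected with BMP4 and at least 4.07-fold higher in FGF2 cultures (adjusted p = 0.105 and 0.0434), CRABP2 (log2 fold change 1.43, adjusted p = 0.341 and 0.0627), the intermediate filament NES (1.24, adjusted p = 0.451 and 0.0559) and the adhesion molecule NCAM1 (1.09, adjusted p = 0.135 and 0.0153). The median of the 10 was 1.18. SOX3, SOX11 and HES5, 3 neural transcription factors, had 0.38 (adjusted p = 0.664), 0.74 (adjusted p = 0.697) and 1.88 (adjusted p = 0.352). WNT3A, a ligand of the canonical WNT pathway, read 7.87, 8.77 and 9.73 with FGF2 and 5.87, 5.28 and 6.26 with BMP4, a change of 2.99 (SE 0.46, adjusted p = 0.0305; 0.133 without FGF2 replicate 2 and 0.101 without BMP4 replicate 2). In the -GFs co-cultures it averaged 8.32 (SD 2.07). Of the 3 measured neuron markers 0 were called by limma (1 at an unadjusted p under 0.05), with MTAP2, STMN2 and GAP43 at 1.12 (adjusted p = 0.352), 0.91 (adjusted p = 0.0785, under the fold threshold) and -0.10 (adjusted p = 0.952), and their mean level was 8.34 to 9.77 with FGF2 and 8.25 to 8.77 with BMP4. In the neural crest list SNAI2, a zinc finger repressor, was higher with BMP4 (-1.22, SE 0.26, adjusted p = 0.0748), a call lost without any one of the FGF2 arrays or BMP4 replicate 1 or 2 (adjusted p between 0.107 and 0.215), and EDNRB was the other called gene of 9. The block added TCFAP2A (AP-2α), a factor of crest and surface ectoderm (-1.59, adjusted p = 0.182 and 0.0243). SNAI2 was brighter in PA6 mono-cultures, with means of 11.74 with FGF2 and 13.84 with BMP4 against 9.74 and 10.97 in co-cultures. There it was called by limma at -2.09 (adjusted p = 5.7e-05), and its difference between culture types was not called (0.87, adjusted p = 0.117).

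Of 14 surface ectoderm and keratin genes 4 were higher with BMP4. GRHL2, a regulator of epithelial junctions, read 7.71, 6.92 and 7.55 with FGF2 and 9.55, 9.24 and 8.99 with BMP4, a log2 difference of -1.87 (SE 0.24, adjusted p = 0.0206). KRT18 and KRT8, which pair in simple epithelia, changed by -1.81 (SE 0.35, adjusted p = 0.0592) and -1.59 (SE 0.38, adjusted p = 0.0949), and KRT7 by -1.15 (SE 0.18, adjusted p = 0.0305). The block raised the calls to 6 and added KRT19 (-1.42, adjusted p = 0.0157 with the block) and TRP63, the p63 factor of stratified epithelia (-1.25, adjusted p = 0.0278 with the block). The median was -0.99. KRT14, KRT15 and KRT17, keratins of stratified and basal epithelium, had -1.75 (adjusted p = 0.146), -0.47 (adjusted p = 0.278) and 0.54 (adjusted p = 0.624). Of these calls GRHL2 was made whichever array was left out, while KRT18 and KRT8 were lost without FGF2 replicate 1 (adjusted p = 0.103 and 0.214), FGF2 replicate 2 (0.192 and 0.246), BMP4 replicate 2 (0.178 and 0.255) or BMP4 replicate 3 (0.129 and 0.194), and KRT7 without FGF2 replicate 2 (0.138) or BMP4 replicate 2 (log2 fold change -0.99). The trophoblast marker list shares KRT7 with this group. Its 4 measured members had a mean level of 8.04 to 8.05 with FGF2 and 8.45 to 8.81 with BMP4, with PLAC1 (-1.17, adjusted p = 0.0742) as the other call. The part of trophoblast-like cells in the keratin difference was not tested.

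Few mesodermal and no endothelial genes were called without the block. Of 9 measured primitive streak and mesoderm genes, GSC (goosecoid), a homeobox gene of the anterior streak, was higher with FGF2 (7.84, 7.73 and 8.38 against 6.32, 5.92 and 7.001, log2 fold change 1.57, SE 0.30, adjusted p = 0.0542), a call lost when any array but BMP4 replicate 3 was left out (adjusted p between 0.103 and 0.149). T (brachyury) read 5.20, 6.28 and 6.49 with FGF2 and 5.74, 7.41 and 7.94 with BMP4, a change of -1.04 (adjusted p = 0.474) that passed with the block (adjusted p = 0.0394). TBX6 and EVX1, further streak genes, had -0.0018 (adjusted p = 0.998) and -0.45 (adjusted p = 0.218 without and 0.0932 with the block, under the fold threshold). None of 21 endothelial and angiogenic genes was called by limma (5 at an unadjusted p under 0.05), with CDH5 (VE-cadherin) at -0.10 (adjusted p = 0.914) and KDR (VEGFR2, FLK1) at -0.43 (adjusted p = 0.295). CDH5 was detected on 2 FGF2 arrays and 1 BMP4 array, so the arrays could hardly resolve a difference in it. Its means were 5.93 and 6.03, against 5.76 and 5.79 in PA6 mono-cultures with FGF2 and BMP4. KDR averaged 6.15 and 6.58, against 6.75 and 6.64 there. FLT1 (VEGFR1) stood at 0.61 (adjusted p = 0.53 without and 0.038 with the block), under the fold threshold. With the block 1 of the 21 was called, VWF (1.0003, adjusted p = 0.351 without and 0.0261 with the block). The 6 measured endothelial markers had a mean level of 7.44 to 7.92 with FGF2 and 7.67 to 8.58 with BMP4.

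In the WNT list, 1 of 28 measured genes was higher with FGF2 (WNT3A) and 3 with BMP4. LEF1, the nuclear mediator of β-catenin, read 5.79, 6.08 and 5.62 against 7.76, 8.01 and 7.53, a log2 difference of -1.94 (SE 0.19, adjusted p = 0.00637). FZD7, a WNT receptor, read 9.44, 9.90 and 9.92 against 11.09, 11.36 and 11.28, a change of -1.49 (SE 0.18, adjusted p = 0.0157). RSPO2, a secreted enhancer of WNT signalling, changed by -1.70 (SE 0.33, adjusted p = 0.0604; 0.152 without FGF2 replicate 1, 0.141 without FGF2 replicate 2, 0.121 to 0.179 without a BMP4 array). Limma also called FZD7 (-1.11, adjusted p = 0.00305) and RSPO2 (-1.40, adjusted p = 0.00161) in PA6 mono-cultures. Their differences between culture types were not called (-0.38, adjusted p = 0.416, and -0.29, adjusted p = 0.736). LEF1 was not detected on any PA6 array. WNT4, WNT5A and WNT5B had -0.15 (adjusted p = 0.911), -0.18 (adjusted p = 0.782) and -0.03 (adjusted p = 0.981), and AXIN2, a general target of the pathway, -0.04 (adjusted p = 0.974). Of these, WNT4 was detected on only 1 FGF2 and 2 BMP4 arrays. In the TGF-β list 1 of 16 was called, TGFBI, a secreted matrix protein, which was 1.46 higher with FGF2 (SE 0.23, adjusted p = 0.0327; 0.139 without FGF2 replicate 2 and 0.101 without BMP4 replicate 2). TGFB1 had 0.62 (adjusted p = 0.462 without and 0.0446 with the block), under the fold threshold in both fits. TGFB2 and TGFB3 had -0.39 (adjusted p = 0.623) and -1.23 (adjusted p = 0.236; 0.0237 with the block). The block raised the calls of this list to 3, with INHBA (-1.16, adjusted p = 0.0577) as the other added gene. None of 10 Notch genes was called by limma (3 at an unadjusted p under 0.05), and 1 with the block, NRARP, a feedback regulator (1.96, adjusted p = 0.161 and 0.0199). None of 17 cell cycle genes was called by limma with or without the block (2 at an unadjusted p under 0.05), with a median of -0.01. Among 12 EMT factors and cadherins SNAI2 was the only call, and the block added SNAI1, a related repressor (1.21, adjusted p = 0.286 without and 0.0226 with the block). In PA6 mono-cultures limma called SNAI2 at -2.09 (adjusted p = 5.7e-05) and SNAI1 at 1.15 (adjusted p = 0.00848).

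**Figure D3:**
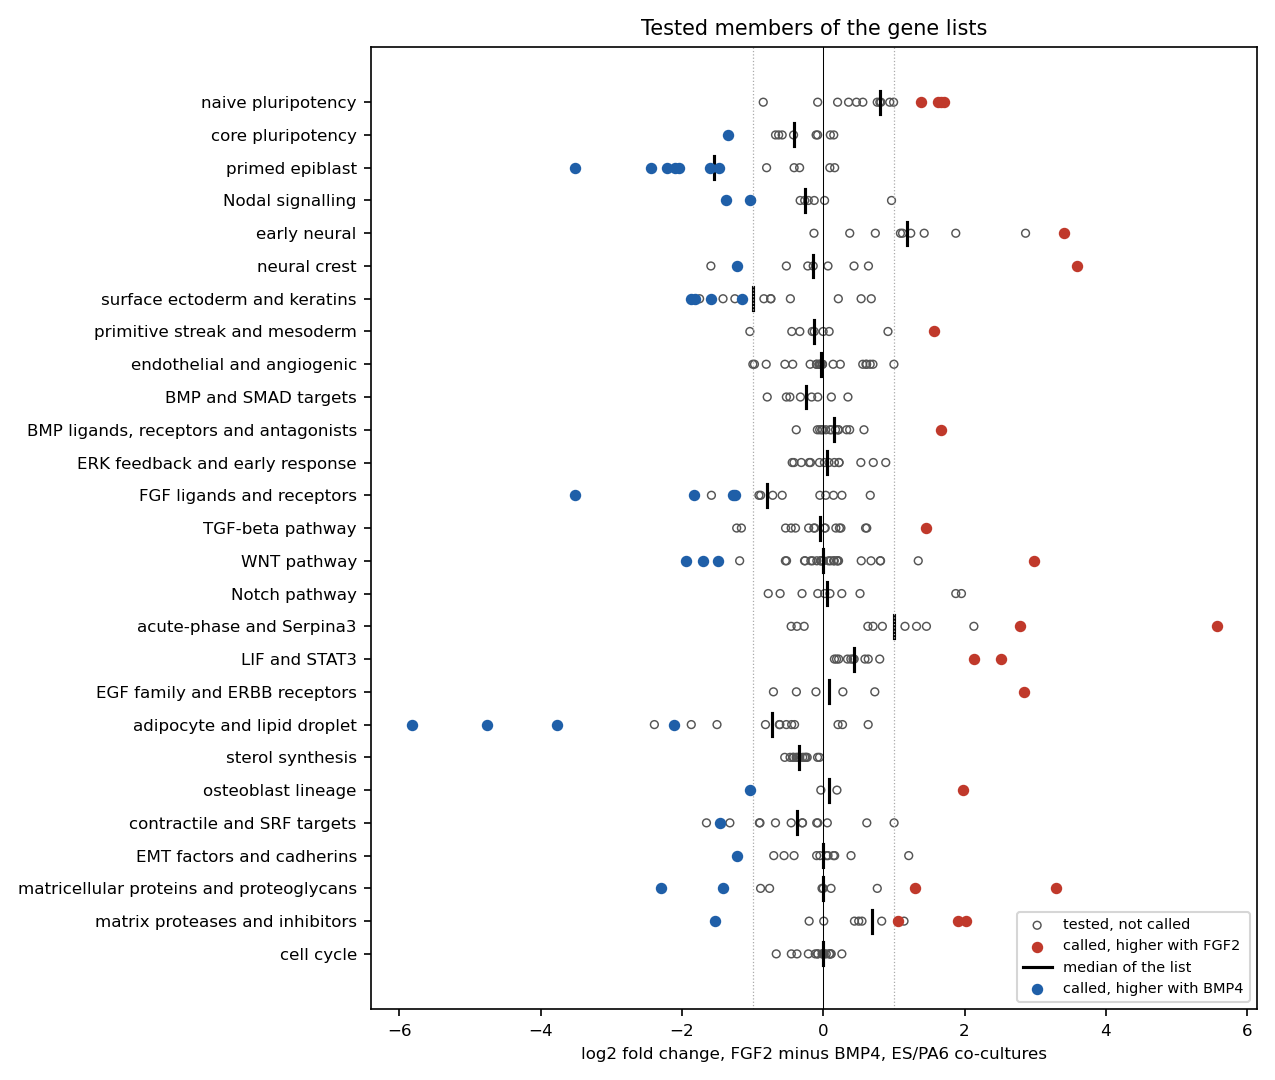
Log2 fold change (FGF2 minus BMP4) of every tested member of 27 gene lists in ES/PA6 co-cultures. Filled red and blue points passed the test, open points did not, the black bar is the median of the list and the dotted lines mark the fold threshold; the primed epiblast and adipocyte lists extend to the left, the acute-phase and early neural lists to the right.

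ADIPOQ and CFD, both made by fat cells, showed the largest differences in favour of BMP4. ADIPOQ (adiponectin) read 6.65, 6.02 and 5.34 with FGF2 and 11.73, 13.18 and 10.58 with BMP4, a log2 difference of -5.83 (SE 0.63, adjusted p = 0.011). CFD (adipsin) read 7.74, 8.22 and 6.22 against 11.59, 13.71 and 11.17, a change of -4.76 (SE 0.73, adjusted p = 0.0305). The second BMP4 array was the highest for both genes, and every BMP4 array was far above every FGF2 array. CIDEC, a lipid droplet protein, was not detected with FGF2 and was at least 8.90-fold higher with BMP4 (adjusted p = 0.0542). ACSL1, a fatty acid activating enzyme, changed by -2.12 (SE 0.49, adjusted p = 0.0905). Without any one of the FGF2 arrays or BMP4 replicate 1 the calls of CIDEC (adjusted p between 0.104 and 0.176) and ACSL1 (between 0.159 and 0.244) were lost. Of 16 measured adipocyte genes these 4 were called and 7 with the block, which added PPARG, the master factor of fat cells (-1.50, adjusted p = 0.17 without and 0.0165 with the block), DGAT2 (-2.39, adjusted p = 0.126 and 0.025) and S3-12 (now Plin4; -1.87, adjusted p = 0.158 and 0.0723). The median of the 16 was -0.72, and CEBPA, CEBPB and LPL had -0.82 (adjusted p = 0.534), 0.27 (adjusted p = 0.694) and -0.61 (adjusted p = 0.252).

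Several others of the 15 largest differences in favour of BMP4 belonged to none of the gene lists. INMT, an indolethylamine methyltransferase, was lower with FGF2 by a log2 difference of -2.68 (SE 0.42, adjusted p = 0.0314; 0.13 without FGF2 replicate 2 and 0.108 without BMP4 replicate 2), and SULT1A1, a phenol sulfotransferase, by -2.65 (SE 0.41, adjusted p = 0.0314; 0.13 without FGF2 replicate 2). ALDH1A7, an aldehyde dehydrogenase, was not detected with FGF2 and was at least 6.22-fold higher with BMP4 (adjusted p = 0.0345; 0.139 without FGF2 replicate 2). 1500015O10RIK (now Ecrg4), a secreted peptide precursor, read 9.002, 9.08 and 9.15 with FGF2 and 11.86, 12.34 and 11.56 with BMP4, a change of -2.84 (SE 0.21, adjusted p = 0.00376). The mitochondrial carbonic anhydrase 7330410H16RIK (now Car5b) changed by -2.57 (SE 0.60, adjusted p = 0.0896; between 0.169 and 0.239 without any one of the FGF2 arrays or BMP4 replicate 1 or 2). 7420416P09RIK (now Vrtn), a gene of vertebral patterning, was not detected with FGF2 and was at least 3.99-fold higher with BMP4 (adjusted p = 0.00432). Of 14 contractile genes, LMOD1, an actin nucleator of smooth muscle, was the only call (-1.46, SE 0.24, adjusted p = 0.0384; 0.108 and 0.159 without FGF2 replicates 1 and 2). With the block MYL9 (-1.65, adjusted p = 0.0137) and ACTA2 (-1.32, adjusted p = 0.00789) were also higher with BMP4, and ANKRD1 with FGF2 (1.003, adjusted p = 0.0274). Of 4 measured osteoblast genes SPP1 (osteopontin) was 1.98 higher with FGF2 (SE 0.39, adjusted p = 0.0596), a call lost without FGF2 replicate 1 or 2 or BMP4 replicate 2 or 3 (adjusted p between 0.12 and 0.176), and TNFRSF11B (osteoprotegerin), not detected with FGF2, was at least 1.48-fold higher with BMP4 (adjusted p = 0.026; 0.122 without FGF2 replicate 2, and a log2 difference of -0.96 without BMP4 replicate 2).

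The eosinophil-associated RNases EAR2, EAR3, EAR4 and EAR10 were among the 15 largest differences in favour of BMP4. EAR2 read 6.55, 7.61 and 6.79 with FGF2 and 11.20, 11.90 and 11.11 with BMP4, a log2 difference of -4.42 (SE 0.32, adjusted p = 0.00376). EAR4 changed by -4.24 (SE 0.36, adjusted p = 0.00432), EAR3 by -4.11 (SE 0.38, adjusted p = 0.00547), and EAR10, not detected with FGF2, was at least 3.57-fold higher with BMP4 (adjusted p = 0.0176). These genes are near-identical copies, so their probes can bind each other's RNA and the differences may come from fewer genes than are named. In PA6 mono-cultures limma also called EAR2 (-2.65, adjusted p = 0.0339) and EAR3 (-2.60, adjusted p = 0.00242) higher with BMP4. EAR4 was not detected there with FGF2 and was at least 2.55-fold higher with BMP4 (limma adjusted p = 0.000566). EAR10 was not detected on any PA6 array. The -GFs co-cultures averaged 10.33 for EAR2, 9.55 for EAR3, 8.60 for EAR4 and 6.67 for EAR10. Which cells gave these differences was not tested. None of the 3 measured blood cell and macrophage markers was called by limma, 1 had an unadjusted p under 0.05 (CD68, CSF1R and CD14 at -0.03, -0.24 and -0.67).

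The same contrast was measured in PA6 mono-cultures, on arrays that share no culture with the co-cultures. There 774 of the 14508 genes (5.33%) were called, 393 (2.71%) higher with FGF2 and 381 (2.63%) higher with BMP4. Genes called in both cultures numbered 87, which is 27.7% of the co-culture calls and 11.2% of the mono-culture calls, and 82 of them had the same sign, 41 in each direction. Opposite signs were found in 5, among them CCNO, KCNAB1, AOC2 and DUSP3. The difference between the culture types, tested directly, was called for 939 genes (6.47%), more positive in co-cultures for 503 (3.47%) and more negative for 436 (3.01%), of which 215 were among the 314 called in co-cultures. Of the 314, 151 (48.1%) were not detected on any of the 9 PA6 arrays, against 11.8% of all genes tested. This share was 55.3% (104 genes) on the FGF2 side and 37.3% (47 genes) on the BMP4 side.

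Genes with an opposite response in the culture types were led by CCNO, a cyclin-like protein of multiciliated cells. In co-cultures it read 9.92, 9.55 and 8.82 with FGF2 and 10.96, 11.02 and 10.77 with BMP4 (log2 fold change -1.48, adjusted p = 0.0498), and in mono-cultures it was 1.86 higher with FGF2 (adjusted p = 0.0011), a difference between cultures of -3.34 (SE 0.37, adjusted p = 0.000529). KCNAB1, a subunit of voltage-gated potassium channels, changed by 1.58 in co-cultures (adjusted p = 0.0379) and by -1.74 in mono-cultures (adjusted p = 0.00161), a difference of 3.33 (SE 0.37, adjusted p = 0.000529). AOC2, an amine oxidase, changed by 1.11 in co-cultures, while in mono-cultures it was not detected with FGF2 and lay at least 1.96-fold below the BMP4 level (adjusted p of the difference 0.000674). DUSP3, a phosphatase, changed by -1.20 (adjusted p = 0.0729) and 1.30 (adjusted p = 0.0054). A further kept probe of AOC2 gave 0.38 in the co-cultures. In co-cultures the calls of CCNO (adjusted p = 0.161, 0.124 and 0.155 without FGF2 replicate 2 and BMP4 replicates 1 and 2) and AOC2 (0.138 without FGF2 replicate 2, and a log2 difference of 0.95 without BMP4 replicate 2) rested on single arrays.

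**Figure D4:**
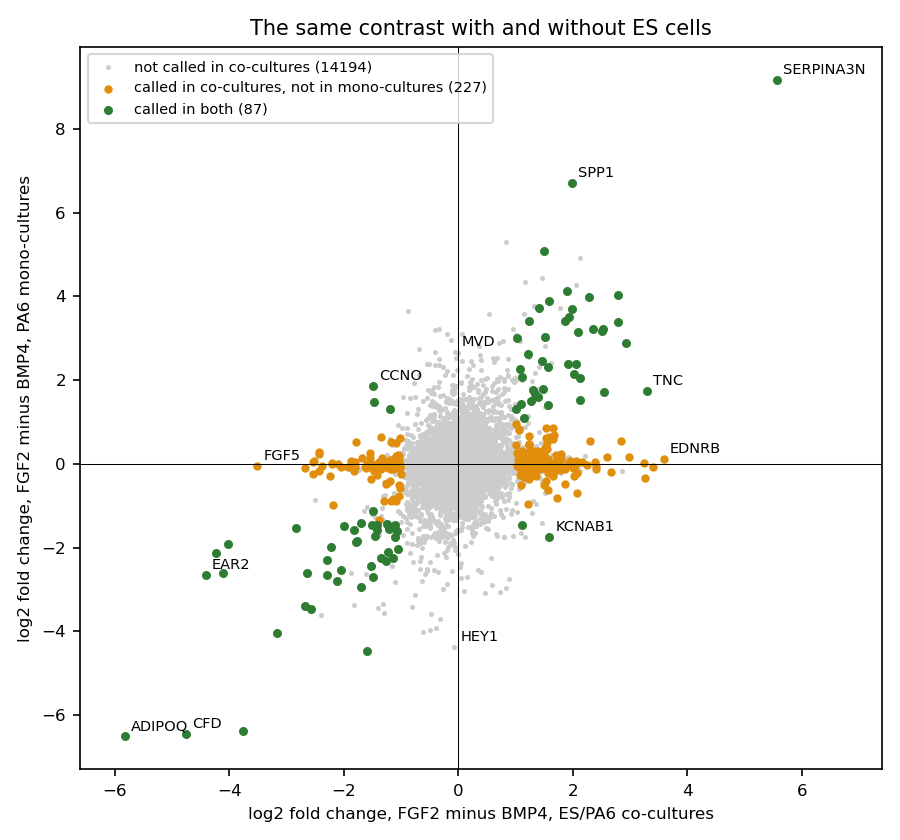
Log2 fold change (FGF2 minus BMP4) of 14508 genes in ES/PA6 co-cultures (horizontal axis) against PA6 mono-cultures (vertical axis). The 87 genes called in both (green) lie mostly on the diagonal, with SERPINA3N and ADIPOQ at its ends, whereas most of the 227 called in co-cultures alone (orange), such as FGF5 and EDNRB, lie near 0 on the vertical axis; SERPINA3N, on the BMP4 side, and HEY1, on the FGF2 side, were not detected in mono-cultures, where the plotted values are the measured ones.

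The direct BMP targets separated the 2 kinds of culture. Of 8 measured BMP and SMAD targets 0 were called in co-cultures by limma, with or without the block (1 at an unadjusted p under 0.05), and 5 were higher with BMP4 in mono-cultures. ID1, an inhibitor of bHLH factors, read 9.43, 9.83 and 9.55 with FGF2 and 9.90, 10.96 and 9.36 with BMP4 in co-cultures, a log2 difference of -0.47 (SE 0.37, adjusted p = 0.645), so its groups overlapped. In mono-cultures it averaged 8.46 (SD 0.95) with FGF2 and 12.06 (SD 0.09) with BMP4, and the difference between cultures was 3.12 (adjusted p = 0.0114). ID2 and ID3 stood at 0.35 (adjusted p = 0.767) and -0.16 (adjusted p = 0.79) in co-cultures. ID4 changed by -0.32 in co-cultures (adjusted p = 0.427) and -3.69 in mono-cultures (adjusted p = 7.43e-05), and SMAD6, an inhibitory SMAD, by -0.79 (adjusted p = 0.15) and -2.34 (adjusted p = 4.25e-05). HEY1, a bHLH target, averaged 9.16 (SD 0.70) with FGF2 and 9.24 (SD 0.48) with BMP4 in co-cultures, while in mono-cultures it was not detected with FGF2 and was at least 11.1-fold higher with BMP4 (adjusted p = 4.89e-05). The medians of the list were -0.24 in co-cultures and -2.43 in mono-cultures. Without BMP4 replicate 1, 1 of the 8 passed in co-cultures. Among 16 BMP ligands, receptors and antagonists RGMA, a BMP co-receptor, was the only call in co-cultures and was higher with FGF2 (10.12, 9.63 and 9.85 against 8.12, 8.49 and 8.02, log2 fold change 1.66, SE 0.19, adjusted p = 0.0131). BMP4, BMP7 and BMPR1A had 0.21 (adjusted p = 0.606), 0.58 (adjusted p = 0.394 without and 0.0796 with the block, under the fold threshold) and -0.02 (adjusted p = 0.973).

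The sterol synthesis genes also parted by culture. None of 14 measured members was called in co-cultures by limma, under the main setting or any alternative run (4 at an unadjusted p under 0.05), and all 14 were slightly lower with FGF2, with a median of -0.34, whereas 12 of 14 were higher with FGF2 in mono-cultures, with a median of 1.76. CYP51, a sterol demethylase, averaged 10.96 (SD 0.22) with FGF2 and 11.31 (SD 0.27) with BMP4 in co-cultures (log2 fold change -0.34, adjusted p = 0.471), and 12.18 (SD 0.11) against 9.81 (SD 0.26) in mono-cultures (adjusted p = 8.89e-05). SQLE, squalene epoxidase, had -0.47 (adjusted p = 0.275) in co-cultures, and IDI1, an isomerase of the pathway, -0.38 (adjusted p = 0.695). The difference between cultures was called for the same number of members, 12, with values from -1.61 in DHCR7 to -2.73 in MVD.

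The medians of the acute-phase and adipocyte lists had the same sign in both cultures. In mono-cultures 9 of the 12 acute-phase genes were higher with FGF2 (median 3.58, against 0.997 in co-cultures), and 11 of the 16 adipocyte genes higher with BMP4 (median -1.56, against -0.72). SERPINA3N was not detected on the BMP4 arrays of the mono-cultures and lay at least 362-fold higher in the FGF2 arrays (adjusted p = 6.42e-08). For ADIPOQ and CFD the contrast in mono-cultures was -6.50 (adjusted p = 8.26e-05) and -6.44 (adjusted p = 4.89e-05), and the differences from the co-cultures, 0.68 (adjusted p = 0.699) and 1.68 (adjusted p = 0.324), did not pass. ERK feedback genes, with 0 calls of 14 in co-cultures, had 5 higher with FGF2 and 1 higher with BMP4 in mono-cultures. The primed and naive pluripotency lists had medians of -0.06 and 0.05 in mono-cultures.

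**Figure D5:**
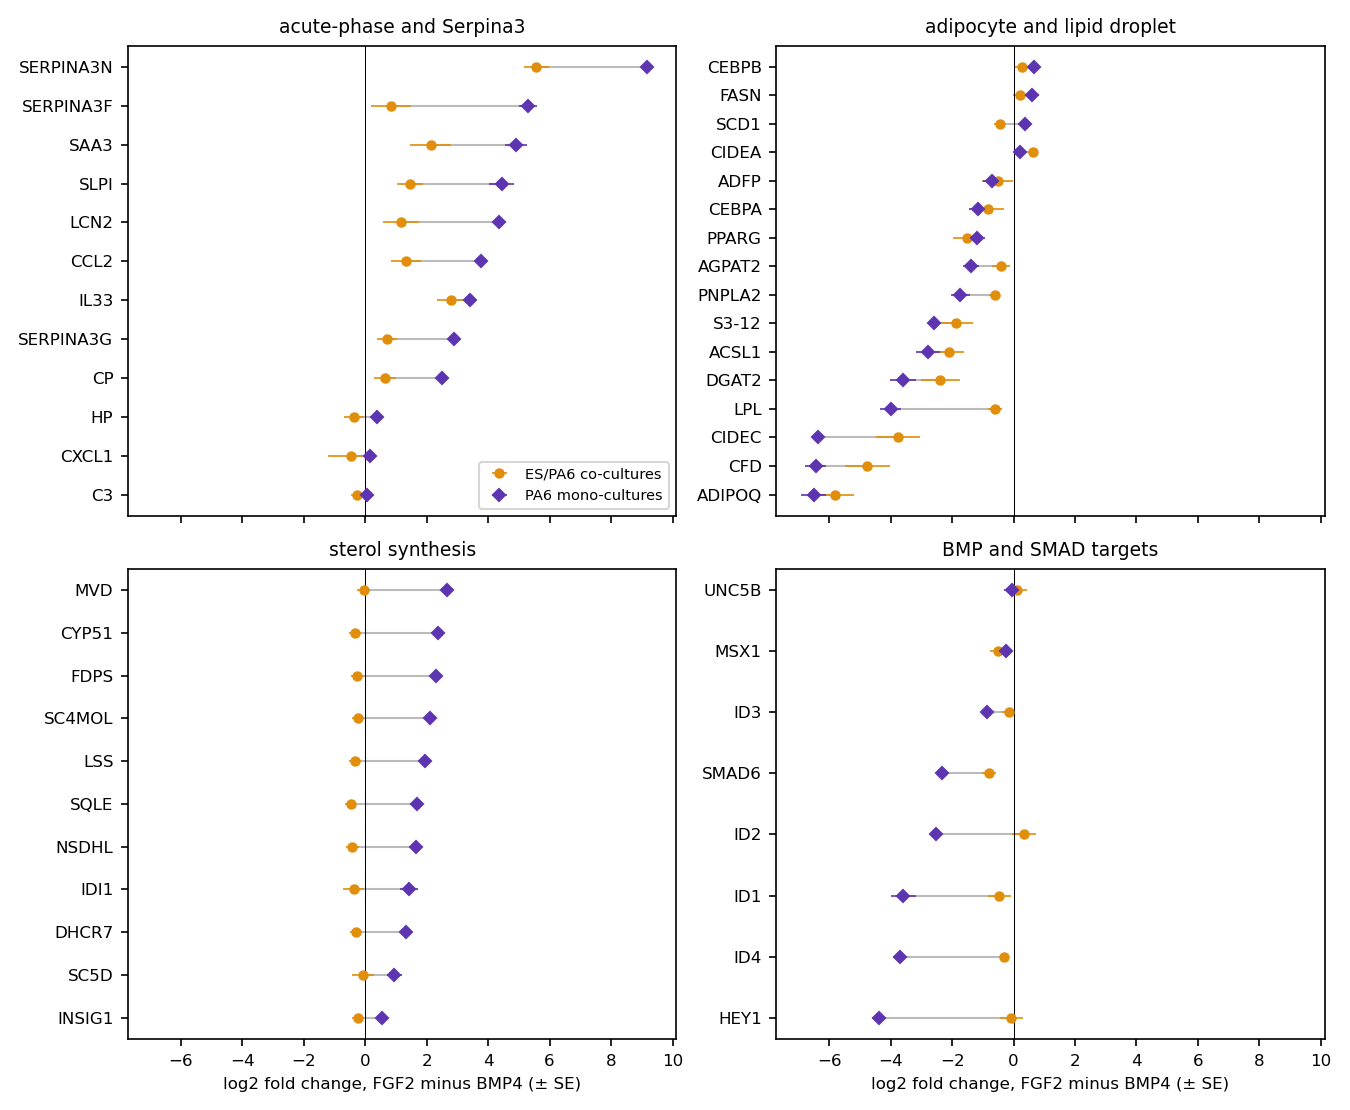
Log2 fold change ± SE (FGF2 minus BMP4) of measured members of 4 gene lists in ES/PA6 co-cultures (orange circles) and PA6 mono-cultures (violet diamonds), joined by a grey line. Sterol synthesis genes and the BMP targets ID1, ID2, ID4 and HEY1 lie near 0 in co-cultures and away from it in mono-cultures, while ADIPOQ and IL33 have a smaller gap between the cultures.

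Broad classes of genes were formed from the untreated arrays. Genes over 8-fold higher in -GFs mono-cultures than in -GFs co-cultures (96 genes) had a median change of -0.25, with 1 call in favour of FGF2 and 15 in favour of BMP4. Genes over 8-fold higher in the co-cultures (847 genes) had a median of 0.07, with 31 and 38. Over all 14508 genes the calls were 188 (1.3%) in favour of FGF2 and 126 (0.868%) in favour of BMP4. The medians by replicate number were -0.28, -0.47 and -0.16 for the first class and -0.01, 0.21 and 0.03 for the second. The stromal share of the RNA was not measured directly, and its part in these values was not tested.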

How the data were processed

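RNA of 18 cultures (6 groups of 3) had been hybridised to Illumina MouseWG-6 v2.0 bead arrays, and the 3 FGF2 and 3 BMP4 ES/PA6 co-cultures were compared, with the 6 matching PA6 arrays for the contrast between culture types. The authors exported from GenomeStudio, listed as version 2011.01 in the submitters' processing notes, non-normalized bead intensity values, which are the deposited unit used here, with a deposited detection p-value per probe and array. The table also held 5 shifted stray lines, which were left out. Cubic spline normalization, named in the study's methods, was run as an alternative only.

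All 18 arrays were background corrected and quantile normalized with neqc of limma 3.58.1 in R 4.3.3 (offset 16), which understates changes of dim genes. For each gene name, the kept probe with the largest mean over the 6 arrays was used (3960 genes had more than 1), and 12003 of 14508 names had a current symbol in the GRCm38.p6 annotation. Each contrast was fitted with lmFit and eBayes without a block, and p-values were adjusted over all 14508 genes (Benjamini-Hochberg). The calling thresholds, the unblocked fit and the choice of probe follow the study's methods. The contrast between culture types used 12 arrays. Replicates are labelled biological, without saying how they were started apart, so p-values measure the spread between these cultures. With 3 against 3 arrays a permutation test cannot go below p = 0.1. Where all arrays of a group failed to detect a gene, its level there is bounded from above only: "at least" folds set the mean of the brighter group against a mean over arrays of whichever was higher, the probe itself or the dimmest detected probe. Arrays limit precision by their number, and 0 pairs held identical values.

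The labels give 1 well per condition in each biological replicate. Deviations from the group means correlated at 0.445, 0.382 and 0.485 for the same numbers in the co-cultures and at 0.161, 0.173 and 0.17 in the mono-cultures, so the numbers pair the arrays. The study's methods name no block, and the blocked fit is given beside counts and calls that it changes. It is also given for some named genes that pass the adjusted p with it but not the fold threshold. Genes named are the 15 largest called differences each way, the called members of each list (at most 6) and up to 3 others in list order, the 4 largest genes with opposite signs in both cultures, and the 6 largest called genes undetected in mono-cultures. Genes outside this rule (ZIC2, DUSP3, LPL, AXIN2, called markers, marker values, members called with the block alone, further genes of the 2-cell-like list) were named after their values were seen. A few results are not reported here, though their genes stay in the counts. The members and gene lists were chosen with earlier results of these data known. Scripts were tested on simulated data. Alternatives covered normalization, filter, probe choice, arrays in the fit, block, variance model, thresholds and each array left out. Slide positions are not given in the sources used here, so no slide block was fitted.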

Additional observations from a re-analysis of the deposited data

Results flagged for a closer look

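The FGF2 minus BMP4 contrast differed between the culture types, ES/PA6 and PA6 alone, by a direct test, for 75 genes named in the text, which include genes that were not called in the co-cultures. The adjusted p of these differences, from the limma fit of 12 arrays, ran from 0.000175 to 0.0969. With the replicate block TNC alone of them lost its call (adjusted p = 0.0936 without and 0.126 with the block). Each value in parentheses is the log2 fold change in co-cultures minus that in mono-cultures.

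Sterol synthesis genes had a lower contrast in co-cultures, among them MVD (-2.73), CYP51 (-2.71), FDPS (-2.58), SC4MOL (-2.34), LSS (-2.28), SQLE (-2.16), NSDHL (-2.08), IDI1 (-1.81) and DHCR7 (-1.61). Direct BMP targets had a higher one, namely HEY1 (4.30), ID4 (3.37), ID1 (3.12), ID2 (2.88) and SMAD6 (1.54). Among the genes called with opposite signs in the 2 cultures were KCNAB1 (3.33), AOC2 (2.57) and CCNO (-3.34).

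Not detected on any PA6 array, and thus with only an upper bound in mono-cultures, were 29 of the 75. Their contrast was more positive in co-cultures for CRABP1 (3.48), EDNRB (3.48), D1ERTD471E (3.24), ZIC1 (3.04), RFX4 (2.86), WNT3A (2.82), TDPOZ4 (2.43), TCSTV3 (1.68), TCSTV1 (1.61), GSC (1.51), TCFCP2L1 (1.42) and STMN2 (1.07), and more negative for FOXH1 (-1.04), LIN28 (-1.22), ZIC2 (-1.39), KRT19 (-1.43), LEFTY1 (-1.44), KRT8 (-1.59), KRT18 (-1.73), LEF1 (-1.87), FGF15 (-1.88), GRHL2 (-1.94), CLDN6 (-1.97), POU3F1 (-2.09), OTX2 (-2.21), EAR10 (-2.31), 7420416P09RIK (-2.58), PIM2 (-2.73) and FGF5 (-3.47).

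Of the genes with the same sign and a log2 fold change over 1 in mono-cultures as well, CIDEC (2.61), TNC (1.55), FGFR2 (1.04), LOC100046802 (-1.25), 1500015O10RIK (-1.30), EAR4 (-2.11), ELN (-2.12), SERPINA3N (-3.60) and SPP1 (-4.73) differed in size. Further genes, whose mono-culture log2 fold change was under 1 in size or of opposite sign, were LOC100046207 (3.59), BTC (2.30), THBS2 (1.53), KLF4 (1.499), RGMA (1.06), TBX3 (1.01), ADAMTS9 (-1.16), KRT7 (-1.26), DNMT3B (-1.50), PLAC1 (-1.70) and DUSP3 (-2.50). Also not called in the co-cultures without the block, but differing between the culture types, were LPL (3.39), NCAM1 (2.53), AXIN2 (1.2004), BMP4 (-1.19), the FGF feedback gene DUSP6 (-1.95) and the inflammation-associated genes CCL2 (-2.45), SAA3 (-2.78), SLPI (-2.98) and LCN2 (-3.195). AOC2, CIDEC, EAR4, HEY1 and LOC100046207 were not detected on the FGF2 arrays of the mono-cultures, and SERPINA3N and PLAC1 on the BMP4 arrays, so that the measured difference is printed for them.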

How the results depend on the processing

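Of 72 called genes named in the text, 41 kept their call under every alternative other than leaving out arrays, 31 kept it whichever single array was left out and 29 under both, and no change turned its direction past the threshold. The co-culture count of 314 was 205 after cubic spline normalization, 203 when no background was subtracted, 209 with probes detected on all 6 arrays, 197 without a filter on dim probes, 174 at an adjusted p under 0.05 and 563 without a fold threshold. Leaving out 1 co-culture array gave 97 (without FGF2 replicate 2) to 364 (without FGF2 replicate 3) calls, and 147 without BMP4 replicate 2. Median scaling gave 349 calls, of which 70.2% were higher with FGF2 against 59.9% under the main setting, and moved the median of all genes from 0.01 to 0.11; for the difference between cultures the more positive share was 65.6% against 53.6%. The causes were not tested.

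Since the numbers pair the arrays, the replicate block raised the co-culture count to 496, and to 518 in a fit of all 18 arrays. With the block and 1 replicate set left out (chosen after seeing the data), the counts were 542, 338 and 557 without sets 1, 2 and 3. In mono-cultures the block gave 783 calls against 774, and for the difference between cultures 1100 against 939.

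The mono-culture count was 3040 without a fold threshold, and 743 to 811 when 1 array was left out. The difference between cultures was called for 597 genes when no background was subtracted, 597 after cubic spline normalization, 1625 without a fold threshold and 782 to 958 with 1 array left out. Values near the lowest detected signal limit the folds of dim genes.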

Other observations

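Genes of the 2-cell-like state, a rare condition of ES cell cultures that resembles the early embryo, were listed after TDPOZ4 had been seen among the largest differences in favour of FGF2, so their counts are a description. Of 11 measured members 7 were called higher with FGF2 and 10 with the replicate block, all 11 were positive, and their median log2 fold change was 1.79. TDPOZ4 read 8.86, 8.96 and 7.55 with FGF2 and 6.46, 5.598 and 5.53 with BMP4 (log2 fold change 2.60, SE 0.42, adjusted p = 0.0335; 0.138 without FGF2 replicate 2 and 0.119 without BMP4 replicate 2). ZSCAN4C, the best known gene of this state, read 12.62, 12.61 and 11.37 against 11.06, 11.52 and 10.78, a change of 1.08 that passed with the block alone (adjusted p = 0.212 and 0.04), as did TMEM92 (1.85, adjusted p = 0.102 and 0.0115). TCSTV3 changed by 1.79 (adjusted p = 0.0628) and TCSTV1 by 1.56 (adjusted p = 0.137). FGF2 replicate 3 was the lowest FGF2 array in each of these 5 genes. Without FGF2 replicate 2 or BMP4 replicate 2, 0 of the 11 were called, without FGF2 replicate 1 or BMP4 replicate 1 or 3, 2 of them, and without FGF2 replicate 3, 10 of them. Several of these genes are near-identical copies, and their probes may share RNA.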
